A study of Mus musculus with 7 samples.

Results

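Krüppel-like factors (Klf) are zinc finger transcription factors that bind CACCC and GC-rich DNA, and they act as activators or repressors depending on the cofactors they recruit. In mouse embryonic stem cells (ESCs), Klf2, Klf4 and Klf5 occupy many of the same sites as Oct4, Sox2 and Nanog and help to maintain self-renewal, and Klf4 is one of the factors used to reprogram somatic cells. Klf4 is also known as a target of the LIF and Stat3 pathway, and Klf2, Klf4 and Klf5 can partly stand in for one another. Klf2, Klf3, Klf4, Klf5, Klf6, Klf9, Klf10 and Klf13 were followed here, 8 genes chosen by name in the GENCODE M1 annotation of mm9, out of 31498 genes with at least 200 exonic bases that belong to a single gene.

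RNA-seq was available from 4 clones of F123, a mouse ESC line with CAST and 129 chromosomes, the parents being inbred mice of those strains, with 1 library each. A distal super-enhancer of Sox2 was intact on both alleles in the wild type clone (CAST+/129+). It was deleted from the 129 copy alone in CAST+/129-, the 129 monoallelic clone, from the CAST copy alone in CAST-/129+, the CAST monoallelic clone, and from both copies in CAST-/129-, the biallelic clone. Each genotype was a single clone, and the deletion clones were made with a pair of CRISPR guides and a puromycin plasmid, recovered on mouse embryonic fibroblast feeders and passaged on gelatin without feeders before harvest. Whether the wild type clone went through the same transfection was not given in the sources used here. ChIP-seq was available for H3K4me3, a mark of active promoters, and H3K27ac, a mark of active promoters and enhancers, in F123 cells, and for H3K27ac in J1, an ESC line of a 129 background. None of the deletion clones had ChIP-seq, so the marks describe unmodified cells. In bulk RNA, fewer cells of a type and less RNA per cell cannot be told apart.

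Sox2 (SRY-box 2), the gene the super-enhancer serves, stood at 174.7 FPKM (wild type), 82.0 (129 monoallelic), 73.1 (CAST monoallelic) and 7.40 (biallelic), the order that the genotypes name. FPKM is the number of distinct alignments per kb of exon, scaled to the library's total on genes. The libraries held from 5831199 (CAST-/129-) to 24848422 (wild type) such alignments on genes. With 1 library a genotype there is no replicate check of any difference and no test, and the 95% intervals below, exact Poisson for a level and exact binomial for a percent of wild type, cover counting error only. Between 38.4% and 46.7% of the RNA alignments had a neighbour of the same strand and length 2 bp away, so the alignments are not independent and the intervals are too narrow. All 8 ESC markers listed (Pou5f1, Nanog, Zfp42, Dppa5a, Dppa4, Utf1, Fgf4, Tdgf1) were above 0 in every clone, with summed levels of 1500 FPKM (wild type), 1528 (129 monoallelic), 1448 (CAST monoallelic) and 1109 (biallelic). In CAST-/129-, 7 of the 8 lay below wild type. By the rule given below, Nanog (130 FPKM in wild type, 38.9 in CAST-/129-) and Zfp42 (185 and 52.3) were at least 3-fold lower there. Dppa5a, at 461 and 480 FPKM, was the largest part of the sum in these libraries.

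Klf4 RNA was lower than wild type in each deletion clone, and it was the member past the 3-fold threshold in all 3 comparisons, each of which shares the wild type library. With each start position counted once, Klf4 was at 36.03% of wild type in CAST+/129- and no member was past the threshold there. The 7 other members stayed within 3-fold of wild type. Of these, Klf5 was the furthest below wild type in each clone, and Klf6 was higher. Klf2, Klf3, Klf9, Klf10 and Klf13 were lower to a smaller degree than Klf5, and their order differed between clones. Klf10 stood at 81.0% (129 monoallelic), 85.2% (CAST monoallelic) and 97.8% (biallelic) of wild type, and Klf9 at 97.6% in the 129 monoallelic clone. The threshold was applied to the log2 ratio of FPKM plus 4. One member of 8 was at least 3-fold lower and 0 at least 3-fold higher in CAST+/129-, where 0.305% of the 31498 genes were lower and 0.321% higher by the same rule. The counts were again 1 and 0 in CAST-/129+, beside 0.33% lower and 0.473% higher, and 1 and 0 in CAST-/129-, beside 0.511% lower and 0.819% higher. Among the 9528 genes with a mean of at least 5 FPKM, which hold all 8 members, the shares at least 3-fold lower and higher were 0.798% and 1.06% in CAST+/129-, 0.903% and 1.5% in CAST-/129+, and 1.47% and 2.5% in CAST-/129-.

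The median log2 ratio over the 8 members was -0.30 in CAST+/129-, -0.65 in CAST-/129+ and -0.80 in CAST-/129-, where the 9528 expressed genes had medians of 0.01, -0.05 and -0.08. In each clone 7 members lay below wild type and 1, Klf6, above. The share of all 9528 expressed genes that lay below was 48.8% (129 monoallelic), 54.4% (CAST monoallelic) and 57.2% (biallelic). The counting interval lay wholly below 100% of wild type for 6 members in CAST+/129-, 7 in CAST-/129+ and 6 in CAST-/129-, and wholly above it for 1 in each. Such intervals were common at this depth. Of the 9528 expressed genes, 37.7%, 40.5% and 43.9% lay below 100% by this rule in the monoallelic 129, monoallelic CAST and biallelic clones, and 40.0%, 34.0% and 31.9% above.

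**Figure D1:**
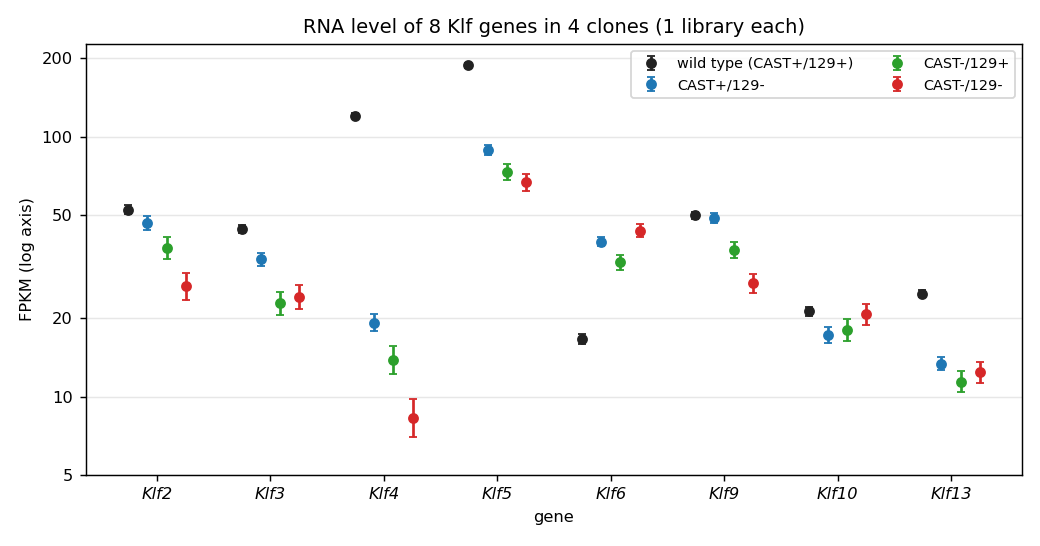
RNA level of the 8 Klf genes (x axis) in FPKM on a log axis (y axis), with 1 point for each clone and bars for the exact 95% Poisson interval of the count. Klf5 and Klf4 were the highest members in wild type at 188.2 and 120.5 FPKM, and in CAST-/129- Klf4 was the lowest at 8.29 FPKM while Klf6 stood second at 43.5 FPKM.

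Klf4 lies on chromosome 4 (mm9 chr4:55540013-55545347, minus strand). Its exons held 9160 alignments (wild type), 734 (129 monoallelic), 257 (CAST monoallelic) and 148 (biallelic), which is 120.5, 19.3, 13.9 and 8.29 FPKM. The wild type level was separated from the other libraries by far more than counting error, and the deletion clones did not overlap one another. Relative to the 129 deletion clone, Klf4 stood at 72.0% (95% interval 62.2 to 83.1) in the CAST deletion clone and at 43.1% (35.9 to 51.5) in the clone without either copy. CAST-/129- stood at 59.8% (48.5 to 73.5) of CAST-/129+. By log2 ratio, Klf4 was the 13th lowest of all 31498 genes in CAST+/129-, the 7th lowest in CAST-/129+ and the 4th lowest in CAST-/129-. Its level went from 98.7% of genes below it in wild type to 75.9% in CAST-/129-. Alignments on the strand opposite to Klf4 over its exons numbered 67, 4, 2 and 0 in that order.

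Klf5 (mm9 chr14:99697910-99712624, plus strand), which supports ESC proliferation and early lineage choice, was the most abundant member in all 4 libraries. It stood at 188.2 FPKM (wild type), 89.0 (129 monoallelic), 73.1 (CAST monoallelic) and 66.8 (biallelic). These are 47.3% (45.0 to 49.7), 38.8% (36.0 to 41.8) and 35.5% (32.7 to 38.4) of wild type. With each start position counted once, which limits a gene's count to its exonic bases, Klf5 was instead at 104%, 102% and 90.1%. The intervals of CAST-/129+ and CAST-/129- overlapped, and CAST-/129- was at 91.4% (82.2 to 101) of CAST-/129+. On the log2 scale of FPKM plus 4 the differences from wild type were -1.05, -1.32 and -1.44, inside the 3-fold threshold. The 3 kb after the annotated end of Klf5 carried 5360 sense alignments (wild type), 917 (129 monoallelic), 351 (CAST monoallelic) and 268 (biallelic). Relative to wild type they came to 34.1% (31.8 to 36.6), 26.9% (24.0 to 29.9) and 21.3% (18.8 to 24.1), in each clone a lower share than over the annotated exons and with intervals that did not overlap those of the exons. The gap depends on the unit counted. With reads before collapsing, the exons stood at 36.3%, 31.0% and 29.0% of wild type. In CAST+/129- that value lies inside the interval of the 3 kb, which were counted by distinct alignments only. With these 3 kb included, Klf5 passed the 3-fold threshold in CAST-/129-, at 29.8% of wild type.

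Klf2 (mm9 chr8:74842932-74845555, plus strand), known in ESCs as a factor of the naive state, had 52.4 FPKM (wild type), 46.5 (129 monoallelic), 37.3 (CAST monoallelic) and 26.6 (biallelic). The levels were 88.7% (82.4 to 95.4), 71.1% (64.0 to 79.0) and 50.7% (44.7 to 57.3) of wild type, and the 3 intervals did not overlap. In CAST-/129-, Klf2 was at 71.3% (61.1 to 83.0) of CAST-/129+ and 57.2% (49.99 to 65.2) of CAST+/129-. Chromosome 8, on which Klf2 lies, was itself lower in CAST-/129+ and CAST-/129-. Its other expressed genes, 545 in number, had a median log2 ratio of 0.07 in CAST+/129-, -0.34 in CAST-/129+ and -0.28 in CAST-/129-, beside -0.16, -0.45 and -0.88 for Klf2. The part of the chromosome in the Klf2 values was not tested.

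The summed level of Klf2, Klf4 and Klf5 was 361 FPKM (wild type), 155 (129 monoallelic), 124 (CAST monoallelic) and 102 (biallelic). Klf4 made up 33.4% of that sum (wild type), 12.4% (129 monoallelic), 11.2% (CAST monoallelic) and 8.16% (biallelic). Klf5 went from 52.1% of the sum to 57.5%, 58.8% and 65.7%, and Klf2 from 14.5% to 30.0%, 30.0% and 26.1%, in the same order of clones. Klf5 RNA was thus the largest share in every library, and Klf4 moved from the second to the smallest share.

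Klf3 and Klf9 lay nearer to wild type than Klf4 and Klf5 in each deletion clone, and not at the same level in the clones with 1 copy deleted. Klf3 (mm9 chr5:65194628-65221368, plus strand), a repressor that recruits CtBP, had 44.2 FPKM (wild type), 33.7 (129 monoallelic), 22.8 (CAST monoallelic) and 24.2 (biallelic), or 76.2% (71.0 to 81.8), 51.6% (46.1 to 57.6) and 54.6% (48.9 to 60.9) of wild type. The intervals of CAST-/129+ and CAST-/129- overlapped, and that of CAST+/129- lay above both. Klf9 (mm9 chr19:23215716-23241401, plus strand), a gene induced by thyroid hormone and glucocorticoids in other tissues, had 49.7, 48.5, 36.7 and 27.2 FPKM in the same order. Its 129 monoallelic level was 97.6% (92.4 to 103) of wild type, an interval that holds 100%, and the CAST monoallelic and biallelic levels were 73.8% (68.1 to 79.9) and 54.8% (49.9 to 60.04). The 3 kb after the annotated ends gave 50.4%, 47.6% and 56.0% of wild type for Klf3 and 90.0%, 77.9% and 55.7% for Klf9.

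Klf13 and Klf10 did not order themselves by how many copies had been deleted. Klf13 (mm9 chr7:71031237-71083801, minus strand), first described as an activator of Ccl5 in T cells, had 24.8 FPKM (wild type), 13.4 (129 monoallelic), 11.4 (CAST monoallelic) and 12.4 (biallelic). Its 3 deletion clones were at 53.9% (50.4 to 57.6), 46.0% (41.6 to 50.7) and 49.9% (45.3 to 54.8) of wild type, and CAST-/129- overlapped each of the others. Klf10 (mm9 chr15:38221219-38230464, minus strand), an early response gene of TGF-beta, had 21.2, 17.2, 18.1 and 20.8 FPKM. It was at 81.0% (74.6 to 87.9), 85.2% (76.5 to 94.6) and 97.8% (88.2 to 108) of wild type, so that no difference between wild type and CAST-/129- was detectable at this depth, with an interval that allows between 88.2% and 108%.

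Klf6 (mm9 chr13:5860735-5869639, plus strand), a broadly expressed gene of the injury response, was the lowest of the 8 members in wild type and the only one above wild type in the deletion clones. It had 16.7 FPKM (wild type), 39.5 (129 monoallelic), 32.9 (CAST monoallelic) and 43.5 (biallelic), or 237% (222 to 253), 197% (182 to 214) and 261% (242 to 282) of wild type. CAST-/129+ was below both other deletion clones, whose intervals overlapped. Compared directly, CAST-/129- was at 110% (102 to 119) of CAST+/129-. Actb, a cytoskeletal gene often used for scaling, was at 165%, 151% and 167% of wild type in the same clones. Gapdh was at 108%, 126% and 108%.

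**Figure D2:**
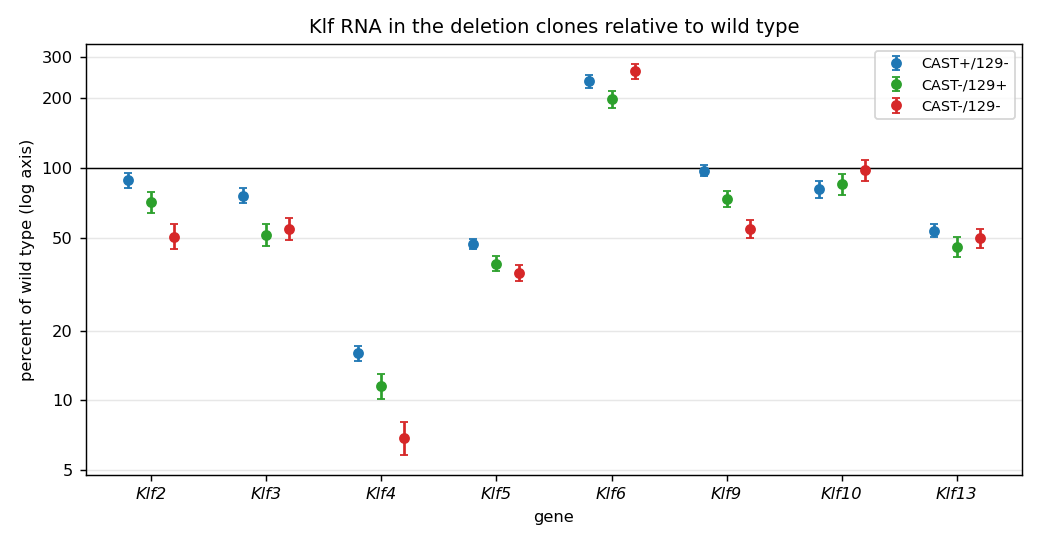
Level of the 8 Klf genes (x axis) in each deletion clone as percent of wild type on a log axis (y axis), with exact 95% binomial intervals of the count ratio and a line at 100%. Klf4 lay between 6.89% and 16.0%, Klf5 between 35.5% and 47.3%, and Klf6 between 197% and 261%.

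The order of the members changed with genotype. In wild type, the levels ran Klf5, Klf4, Klf2, Klf9, Klf3, Klf13, Klf10 and Klf6 from high to low, and of neighbours in this order only the intervals of Klf2 (50.3 to 54.5 FPKM) and Klf9 (48.2 to 51.3 FPKM) overlapped. In CAST+/129-, the order was Klf5, Klf9, Klf2, Klf6, Klf3, Klf4, Klf10 and Klf13, with overlap of Klf9 with Klf2 and of Klf4 with Klf10. In CAST-/129+, it was Klf5, Klf2, Klf9, Klf6, Klf3, Klf10, Klf4 and Klf13, where Klf2, Klf9 and Klf6 overlapped in turn, as did Klf4 and Klf13. In CAST-/129-, Klf6 followed Klf5, then came Klf9, Klf2, Klf3 and Klf10, each overlapping the next, and Klf13 and Klf4 closed the order without overlap.

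Among the 18 other Klf and Sp genes, which share the zinc finger domain, Klf15 was past 3-fold in CAST-/129- and none was past it in the other clones. Klf15 stood at 18.5 FPKM (wild type), 5.43 (129 monoallelic), 5.55 (CAST monoallelic) and 1.76 (biallelic). Klf11, a repressor related to Klf10, stood at 20.2, 6.87, 4.96 and 5.52 FPKM, and Klf8 at 11.6, 3.70, 4.47 and 3.33 FPKM, both inside the threshold after 4 is added to each FPKM. Sp1, the general activator of GC boxes, stood at 40.8, 44.7, 37.7 and 28.4 FPKM, and Sp3 at 34.3, 33.9, 30.1 and 31.9 FPKM. The median log2 ratio of the list was -0.01, -0.09 and -0.09 in the monoallelic 129, monoallelic CAST and biallelic clones. That median includes genes near 0 FPKM, 3 of them at 0 in wild type, whose ratios stay near 0 once 4 is added. It therefore does not describe the expressed genes of the list. In CAST-/129-, the log2 ratios of those named, all below wild type, were -1.96 (Klf15), -1.34 (Klf11), -1.09 (Klf8), -0.46 (Sp1) and -0.09 (Sp3). The list as a whole went both ways. In each clone 11 of the 18 lay below wild type, and 7 (129 monoallelic), 5 (CAST monoallelic) and 6 (biallelic) lay above.

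Of 11 measured regulators and partners of the Klf genes in ESCs, 8 were past 3-fold lower in CAST-/129- and 0 higher, and in each of the other clones Nr0b1 and Tbx3 were past it. The 8 were Sox2, Nanog, Esrrb, Tbx3, Prdm14, Zfp42, Nr5a2 and Nr0b1. Esrrb, an orphan nuclear receptor, stood at 89.9 FPKM (wild type), 51.3 (129 monoallelic), 31.4 (CAST monoallelic) and 21.3 (biallelic). Tbx3, a T-box factor of the same network, stood at 101, 18.6, 10.4 and 10.4 FPKM, with nearly all of its difference already in the clones with 1 copy deleted. Pou5f1, which encodes Oct4, stood at 188, 132, 207 and 163 FPKM, within 3-fold of wild type in each clone. The median log2 ratio of this list was -0.76, -1.06 and -1.77.

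Of 8 genes of the LIF and Stat3 pathway, Lifr and Socs3 were past 3-fold lower in CAST-/129- and none was past the threshold in the other clones. Lifr, the LIF receptor subunit, stood at 21.5 FPKM (wild type), 12.2 (129 monoallelic), 8.29 (CAST monoallelic) and 3.83 (biallelic). Socs3, a feedback inhibitor that Stat3 induces, stood at 47.0, 22.1, 16.4 and 9.85 FPKM. Stat3 itself stood at 16.2, 7.78, 8.75 and 11.3 FPKM, with CAST-/129- the highest of the deletion clones. Of 7 genes known as targets of Klf2, Klf4 and Klf5 in ESCs, 3 were past 3-fold lower in CAST-/129- (Esrrb, Nanog and Tcl1) and 1, Tcl1, in each of the other clones. Mycn, another gene of that list, stood at 26.5, 35.0, 50.04 and 41.1 FPKM and was above wild type in each deletion clone.

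By the distance between the 3 log2 ratios, over 7006 genes with a mean of at least 10 FPKM, the genes nearest to Klf4 were Tcl1 (0.40), Gm7325 (0.45) and Tbx3 (0.51). Nearest to Klf5 were D16Ertd472e (0.08), Mmrn2 (0.09) and Add3 (0.09), and nearest to Klf2 were Gm16379 (0.04), Wbp7 (0.09) and Slc25a13 (0.09). Few genes were as low as Klf4 in each clone, so its nearest genes lay farther away than those of Klf2 and Klf5. The likeness rests on 4 libraries that share 1 wild type.

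Markers of other cell types moved between the same libraries. Of 10 fibroblast markers, 6 were past 3-fold higher in CAST-/129- (Col1a1, Col1a2, Col3a1, Dcn, Lum and Postn) and 1, Pdgfra, lower, and their summed level was 41.6 FPKM (wild type), 72.5 (129 monoallelic), 77.7 (CAST monoallelic) and 389 (biallelic). Pdgfra, which is also on the primitive endoderm list below, gave 22.6 FPKM of the wild type sum. It gave 1.60, 2.55 and 4.48 FPKM in the deletion clones, so the sum understates the rise of the other markers. Lum was at 0 in wild type. Of 7 measured trophectoderm markers, 3 were past 3-fold higher in CAST-/129- (Ascl2, Hand1 and Krt7), with sums of 6.20, 82.8, 99.1 and 59.2 FPKM, and none was at 0. Of 7 primitive endoderm markers, Gata6 and Pdgfra were past 3-fold lower in CAST-/129-, with sums of 120, 23.9, 64.4 and 41.3 FPKM. The list did not move as 1, with 0, 3 and 2 of the 7 above wild type in the deletion clones in the same order. Foxa2 stood at 1.36, 0.644, 9.05 and 11.4 FPKM, inside the threshold after 4 is added. The part of such cells in the Klf values was not tested.

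All 8 promoters carried the marks of active genes in unmodified cells. Within 2 kb on each side of the start, each member was at least 5-fold above the autosomal mean for H3K4me3 in F123, H3K27ac in F123 and H3K27ac in J1, so 8 of 8 were called in each library, where 44.8%, 27.3% and 21.1% of 22350 protein-coding promoters were. Those promoters were not selected for expression, whereas all 8 members were expressed, and the shares among expressed genes were not computed. H3K4me3 was between 20.2-fold at Klf3 and 31.9-fold at Klf13, with Klf6 apart at 11.2-fold (9.38 to 13.3). H3K27ac in F123 spanned a wider range, from 11.6-fold (7.85 to 16.6) at Klf6 and 22.9-fold (17.4 to 29.5) at Klf2 to 77.1-fold (66.8 to 88.6) at Klf13. The F123 H3K27ac library was the shallowest of the 3, with 1576875 distinct alignments, and 30 of them lay at the Klf6 promoter.

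By ratio, the promoters of Klf4 and Klf5 differed most between the lines. H3K27ac at Klf4 was 36.8-fold (29.8 to 45.0) in F123 and 9.22-fold (7.63 to 11.1) in J1, and at Klf5 28.7-fold (22.5 to 36.0) in F123 and 7.02-fold (5.63 to 8.63) in J1. At Klf2, 22.9-fold in F123 stood beside 17.3-fold (15.1 to 19.7) in J1, with overlapping intervals, and Klf6 overlapped too. Among the 22350 promoters, Klf4 ranked 500 by H3K27ac in F123 and 2053 in J1, and Klf5 ranked 808 and 3192. The libraries differed in depth and reads per alignment and were scaled each to its own mean, so the part of the line in these values was not tested.

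**Figure D3:**
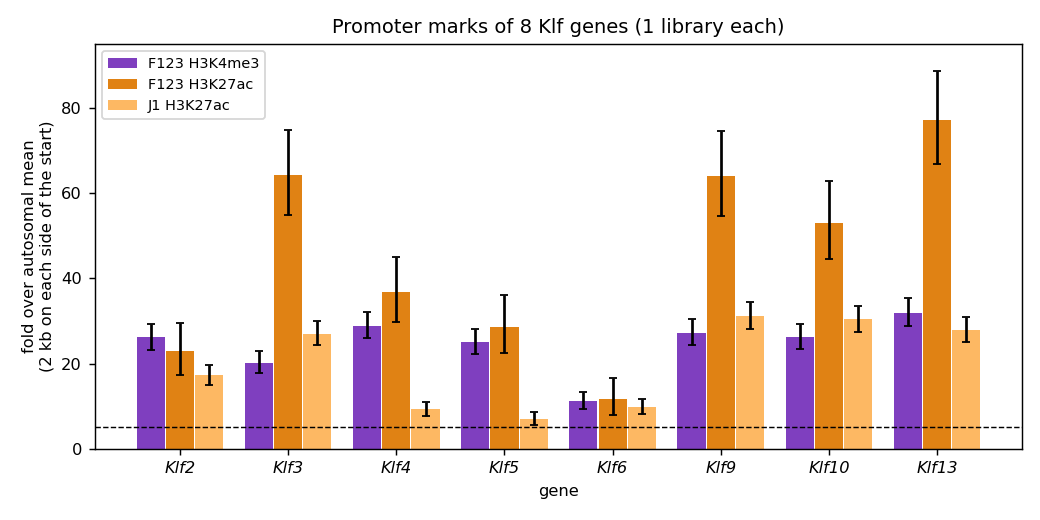
Fold over the autosomal mean (y axis) of H3K4me3 in F123, H3K27ac in F123 and H3K27ac in J1 within 2 kb on each side of the start of each Klf gene (x axis), with exact 95% Poisson intervals and a dashed line at 5-fold. All 24 bars lie above the line, and H3K27ac in F123 runs from 11.6-fold at Klf6 to 77.1-fold at Klf13.

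The promoter sequences of Klf2, Klf4 and Klf5 are shown because these genes carry the marks just described and are the members with known roles in ESCs. Each is the 250 bases before the most upstream annotated start, 5′ to 3′ along the gene, read from the mm9 genome at chr8:74842682-74842931 (plus strand), chr4:55545348-55545597 (minus strand) and chr14:99697660-99697909 (plus strand), with matches to the letters CCGCCC (a GC box) and CACCC on either strand in capitals.
Klf2: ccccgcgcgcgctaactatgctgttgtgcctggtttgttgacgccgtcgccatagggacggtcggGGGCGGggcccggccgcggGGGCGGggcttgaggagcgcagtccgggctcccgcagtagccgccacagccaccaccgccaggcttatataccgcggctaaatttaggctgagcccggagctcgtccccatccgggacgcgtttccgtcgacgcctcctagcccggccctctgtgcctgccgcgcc
Klf4: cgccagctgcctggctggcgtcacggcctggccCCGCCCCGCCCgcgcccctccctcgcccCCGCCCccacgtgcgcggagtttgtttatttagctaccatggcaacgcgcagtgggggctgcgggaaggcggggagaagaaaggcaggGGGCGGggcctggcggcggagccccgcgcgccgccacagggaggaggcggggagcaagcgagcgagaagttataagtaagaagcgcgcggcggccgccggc
Klf5: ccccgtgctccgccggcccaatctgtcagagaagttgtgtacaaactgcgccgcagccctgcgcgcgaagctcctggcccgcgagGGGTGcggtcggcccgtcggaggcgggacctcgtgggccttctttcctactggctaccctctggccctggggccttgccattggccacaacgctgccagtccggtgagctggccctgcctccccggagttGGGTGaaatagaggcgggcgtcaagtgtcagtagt
The Klf4 window held 4 GC boxes, of which one pair shares bases, Klf2 held 2 and Klf5 none, whereas Klf5 held 2 CACCC matches and the other pair none. Of all 22345 promoters of this length, 39.6% held CCGCCC and 52.4% held CACCC. The GC content of the 8 member promoters was between 59.6% at Klf9 and 80.0% at Klf3, above the median of 54.0% over all promoters. None of the 8 windows held TATAAA, which 12.3% of promoters did, nor a composite of the Sox and octamer letters, TTGTN directly before ATGCAAA, which 0.0358% did.

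Beyond the promoters, H3K27ac was grouped into distal domains, which are runs of 1 kb bins at least 5-fold above the autosomal mean joined over gaps of up to 2 kb and kept clear of 2 kb around any protein-coding start. Such bins made up 2.53% of the genome in F123 and 2.15% in J1. Within 100 kb of the 8 starts there were 58 domains in F123 and 43 in J1, of which 40 in F123 and 36 in J1 met a domain of the other line. The share that did so among all 20299 distal domains of F123 and 14010 of J1 was not computed, nor was the number near other genes. These counts therefore do not set the Klf genes apart. The threshold in F123 was only 4 alignments in a bin, and the single-bin domains, 18 of the 58, held between 4 and 28. Klf2 had 13 F123 domains in range, Klf13 11, Klf3 and Klf9 9 each, Klf10 6, Klf5 5, Klf4 3 and Klf6 2. For Klf2, 3 of the 13 lay nearer to its start than to that of another protein-coding gene, whereas for Klf4, Klf5, Klf6 and Klf13 all did.

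By alignments, a count that grows with length, Klf4 and Klf5 each had 1 long downstream domain among the highest in the genome. That of Klf4 covered 32 kb (mm9 chr4:55464001-55496000), from 49.3 to 81.3 kb past the start, with 699 alignments in F123 and a mean of 33.9-fold (31.4 to 36.5), and ranked 19 of 20299 distal domains by alignments. Its highest 1 kb bin reached 130-fold, and the highest 1 kb bin at the Klf4 promoter, in bins laid out from the start, reached 49.6-fold. By mean, the domain was not above the promoter window, which had 36.8-fold (29.8 to 45.0), an overlapping interval. In J1, the same interval held a domain of 25 kb, which ranked 32 of 14010, and a single bin. The domain of Klf5 covered 40 kb (mm9 chr14:99720001-99760000), from 22.1 to 62.1 kb past the start, with 546 alignments and 21.2-fold (19.4 to 23.0), and ranked 34. In J1, the interval held 2 domains, of 8 kb and 24 kb, which ranked 566 and 99.

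The leading domains of the other members were shorter. By alignments in F123, those of Klf9, Klf2, Klf13 and Klf3 ranked 98, 108, 148 and 503 of 20299. By mean fold, the Klf5 domain, at 21.2-fold, was below the leading domains of all other members but Klf6. That of Klf2 covered 16 kb (mm9 chr8:74851001-74867000), between 8.1 and 24.1 kb downstream, with 27.9-fold in F123 (24.8 to 31.3) and 18.7-fold in J1 over the same interval, and it ran into the end of the neighbouring gene Eps15l1. Klf9 had 13 kb between 45.7 and 58.7 kb upstream (mm9 chr19:23157001-23170000) at 36.0-fold (32.1 to 40.3), and Klf13 had 9 kb between 15.2 and 24.2 kb upstream (mm9 chr7:71099001-71108000) at 43.1-fold (37.9 to 48.8), with a highest bin of 143-fold. Klf3 had 7 kb between 56.4 and 63.4 kb downstream at 27.3-fold (22.6 to 32.5). Klf10 had 1 bin 83.5 kb upstream with 28 alignments, and Klf6 had 2 kb at 15.7 kb upstream with 9 alignments and 6.98-fold (3.19 to 13.2), so in F123 Klf6 had the lowest promoter fold and the lowest leading-domain fold of the 8. In J1, its promoter, at 9.77-fold, was above those of Klf4 and Klf5.

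**Figure D4:**
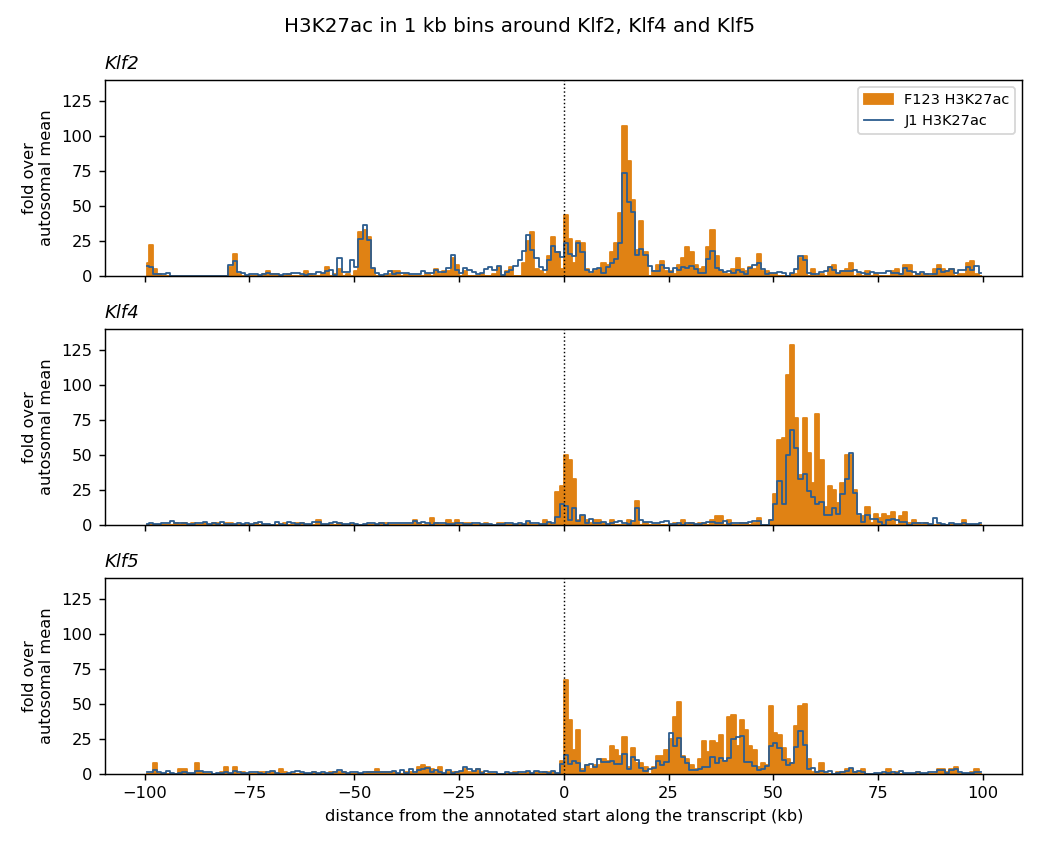
H3K27ac in 1 kb bins as fold over the autosomal mean (y axis) against distance from the start along the transcript in kb (x axis) for Klf2, Klf4 and Klf5, filled for F123 and as a line for J1. Within the leading domains the highest plotted bin reached 107-fold for Klf2, 129-fold for Klf4 and 51.2-fold for Klf5, in bins laid out from the start and so shifted from those of the domains.

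Among the letters searched for ESC factors, the highest bin of a leading domain held ATTGTT at Klf4 (3 matches), Klf2 and Klf10 (1 each), CCACACCC at Klf3 (3) and Klf5 (1), and TTCCNGGAA at Klf9 (1). Short sequences are shown for Klf4, Klf5 and Klf9, the domains whose RNA is described next, and for every match to the composite in a distal domain of a member. Each is read 5′ to 3′ from mm9 on the strand of the match, with 20 bases on each side and the match in capitals. The highest bin of the Klf4 domain held 3 matches to ATTGTT, the core letters that Sox factors bind, at chr4:55491020-55491065, chr4:55491681-55491726 and chr4:55491950-55491995, all on the minus strand.
Klf4 at 54.3 kb: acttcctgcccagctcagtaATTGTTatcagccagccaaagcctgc
Klf4 at 53.6 kb: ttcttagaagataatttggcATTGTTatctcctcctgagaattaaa
Klf4 at 53.4 kb: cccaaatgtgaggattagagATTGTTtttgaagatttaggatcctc
The highest bin of the Klf5 domain held 1 match to CCACACCC, a CACCC form bound by Klf proteins (chr14:99747032-99747079, minus strand), and that of Klf9 held 1 match to TTCCNGGAA, the Stat letters (chr19:23163681-23163729, plus strand).
Klf5 at 49.1 kb: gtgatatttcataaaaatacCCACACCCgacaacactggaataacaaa
Klf9 at 52.0 kb: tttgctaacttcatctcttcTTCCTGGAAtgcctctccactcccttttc
The composite of TTGTN and ATGCAAA, in which a Sox part and an octamer part adjoin, was found in the leading domain of Klf13 (chr7:71102115-71102166, plus strand) and in a further domain of Klf3 that lies upstream (chr5:65093706-65093757, minus strand).
Klf13 at 18.3 kb: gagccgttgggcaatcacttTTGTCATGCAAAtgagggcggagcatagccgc
Klf3 at 100.9 kb: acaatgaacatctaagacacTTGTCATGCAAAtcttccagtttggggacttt
Searched on both strands, ATTGTT occurred in the highest bin of 40.0% of the 20299 distal F123 domains, CCACACCC in 13.8% and TTCCNGGAA in 3.85%. The composite occurred in 0.859% of windows of 9 kb, the length of the Klf13 domain, and in 0.383% of windows of 4 kb, the length of that Klf3 domain. These are shares of single genome windows, whereas the matches came from a search of all distal F123 domains of the members. The composite occurred in 0.187% of the highest bins of distal F123 domains, and neither match lay in a highest bin. A match is a description of the letters and not evidence of binding.

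RNA from the distal domains of Klf4 and Klf5 was lower in each deletion clone on the strand of the gene. The Klf4 domain gave 511 RNA alignments (wild type), 101 (129 monoallelic), 52 (CAST monoallelic) and 15 (biallelic), which is 20.6, 8.11, 8.58 and 2.57 CPM, the count scaled to the library's total on genes. On the minus strand, the strand of Klf4 and of the annotated transcript Gm12510 that lies within the domain for most of its length, the counts were 446, 66, 30 and 15, or 29.5% (22.4 to 38.3), 27.6% (18.4 to 39.9) and 14.3% (7.95 to 23.9) of wild type. On the plus strand they were 65, 35, 22 and 0, and the intervals of CAST+/129- (69.1 to 164% of wild type) and CAST-/129+ (81.5 to 228%) held 100%. In CAST-/129- the plus strand was at 0% (0 to 24.9) of wild type, which overlaps the minus strand. As a fixed floor for a count of 0, and not the exact Poisson limit, 3 alignments were taken, which is 0.514 CPM in CAST-/129-.

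On the plus strand, which is that of Klf5, the Klf5 domain gave 2357 alignments (wild type), 162 (129 monoallelic), 47 (CAST monoallelic) and 29 (biallelic). These are 13.7% (11.6 to 16.1), 8.18% (5.99 to 10.9) and 5.24% (3.50 to 7.55) of wild type, below the 47.3%, 38.8% and 35.5% of the Klf5 exons. On the minus strand the counts were 55, 35, 13 and 24, with CAST-/129- at 186% (110 to 305) of wild type. The strand of the gene thus carried nearly all of the domain's RNA in wild type and about as much as the other strand in CAST-/129-. The domain lies downstream of the annotated end of Klf5. The 3 kb after that end already held 5360 alignments on the same strand in wild type. The part of RNA running on from Klf5 in the plus strand values was not tested.

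The Klf9 domain, upstream of its gene, changed strand between clones. On the plus strand, the strand of Klf9, it gave 611 alignments (wild type), 38 (129 monoallelic), 19 (CAST monoallelic) and 10 (biallelic), or 12.4% (8.69 to 17.2), 12.8% (7.63 to 20.1) and 6.97% (3.33 to 12.9) of wild type. On the minus strand it gave 314, 385, 121 and 53, or 245% (210 to 285), 158% (127 to 196) and 71.9% (52.7 to 96.5). The next domain upstream (mm9 chr19:23148001-23152000) lies in the annotated gene C330002G04Rik and also carried mostly minus strand RNA. Its minus strand stood at 172% (137 to 216), 135% (97.7 to 184) and 63.8% (40.1 to 97.5) of wild type. The part of that gene in the minus strand values of the Klf9 domain was not tested. Klf9 itself was at 97.6% of wild type in CAST+/129-, where the plus strand of its leading domain was at 12.4%. The leading domains of Klf3, Klf6, Klf10 and Klf13 gave 27, 3, 2 and 27 alignments in wild type, too few to compare. That of Klf2 lay partly in Eps15l1, so its 766 alignments cannot be assigned to the domain or to that gene. Of them, 735 were on the minus strand, opposite to Klf2. There the deletion clones were at 51.8% (44.0 to 60.9), 46.3% (36.5 to 58.2) and 39.4% (30.3 to 50.6) of wild type.

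**Figure D5:**
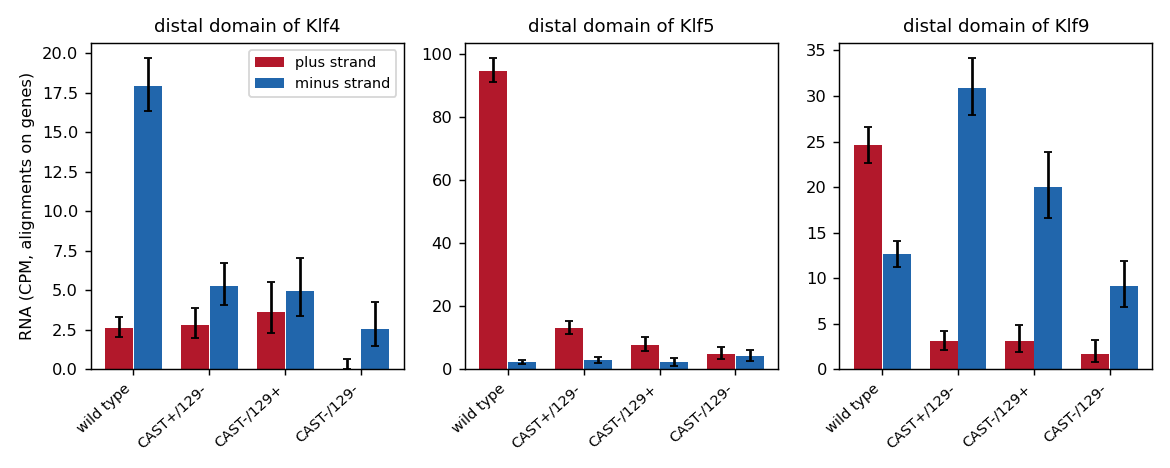
RNA in CPM, scaled to alignments on genes (y axis), on the plus and minus strand of the leading F123 H3K27ac domains of Klf4, Klf5 and Klf9 in the 4 clones (x axis), with exact 95% Poisson intervals and a separate y axis for each domain. Wild type reaches 20.6 CPM over both strands at Klf4 and 97.1 at Klf5, and CAST-/129- lies at 2.57 and 9.09.

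Introns could not be used as a second readout of these genes. Klf2, Klf3, Klf4, Klf5, Klf6 and Klf9 had 0 alignments in their introns in all 4 libraries, Klf10 had between 2 and 6 and Klf13 between 4 and 38. Over all genes the introns held 1.15 alignments per kb in wild type, fewer than the 4.64 per kb between genes, and exons held 292 per kb. No statement on unspliced Klf RNA was therefore made.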

How the data were processed

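Per the labels, Bowtie aligned the ChIP-seq reads and Novoalign the RNA-seq reads to mm9, and their versions were not given in the sources used here. The authors deposited, for each of the 7 libraries, a list of aligned positions, each once, with the count of reads found at it. Alleles were not told apart.

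Distinct RNA alignments, whose strand is the reverse of the transcript's, were assigned by their midpoint over exonic bases that belong to 1 gene of GENCODE M1. As in the study's methods, 4 was added to each FPKM before taking log2 ratios, and 3-fold was the threshold. ChIP alignments were counted by their 5′ end, with no input library used. Groups came from the labels, and each holds 1 library, so no test was run. The counting rules were tested on simulated data. Intervals are at 95% and cover counting error only.

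The members and gene lists were chosen with earlier results of these data known. Genes named beside the members are those of the lists that passed 3-fold in CAST-/129-, at most 4 others of each list, and the 3 genes nearest to Klf2, Klf4 and Klf5 by profile. Sox2, Actb, Gapdh, Hprt, Tbp, Eps15l1, Gm12510 and C330002G04Rik were named as checks or annotation. The motifs shown from highest bins (ATTGTT at Klf4, CCACACCC at Klf5, TTCCNGGAA at Klf9) were chosen after their matches were seen. Alternatives changed the unit counted, the library size, the strand, the pseudo-value, the threshold, the exons, the windows and the distances. Those added after seeing the data were the pairing of alignments 2 bp apart, the 3 kb after the annotated end, and domains shared by both lines or of at least 2 bins. One list of markers is not reported here. Protein sequences were not used here. Software was scipy 1.17.1 and pandas 2.3.3 under Python 3.11.15, with numpy 2.4.6 and matplotlib 3.10.9.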

Additional observations from a re-analysis of the deposited data

How the results depend on the processing

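The count of 1 member past 3-fold (Klf4, lower) held in each clone under every alternative other than these. With reads before collapsing, and in CAST-/129- also with the 3 kb after the annotated end, it was 2 in CAST-/129+ and CAST-/129-, since Klf5 passed too. With each start position counted once it was 0 in CAST+/129-, where Klf4 stood at 36.03% of wild type. By construction that setting limits a gene's count to its exonic bases, 1721 for Klf5, and it took Klf2 to 109% and Klf5 to 104% of wild type in CAST+/129- and Klf5 to 102% in CAST-/129+, all above wild type, and Klf5 to 90.1% in CAST-/129-. Thinning reads to the smallest library took Klf10 in CAST-/129+ to 104%. A 2-fold threshold gave 3 members in CAST+/129- and CAST-/129- and 2 in CAST-/129+. Of 24 percents of wild type under 14 alternatives each, 277 values stayed within the counting interval. The pseudo-value, the threshold and a filter on mean FPKM do not enter a percent, so the values under those alternatives stayed by construction. In all 12 crossed 100%, the 4 just given and 8 of Klf9 in CAST+/129- and Klf10 in CAST-/129-, whose intervals hold 100%. With reads before collapsing, Klf4 stood at 13.0%, 9.87% and 6.12%, Klf5 at 36.3%, 31.0% and 29.0%, and Klf6 at 266%, 248% and 345%. All 8 promoters stayed past the threshold under each alternative for both F123 marks, and at 10-fold 5 did in J1. The 58 distal domains in F123 became 36 with gaps of 5 kb joined and 26 within 50 kb, and the 43 in J1 became 24 within 50 kb and 69 within 200 kb. Other causes were not tested. No paired analysis was possible because each genotype has 1 library, and for the same reason no replicate could be left out.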

Other observations

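The genes around each member were read with the same ratios. Over the 20 nearest expressed genes, the median log2 ratio in CAST-/129- was between -0.51 around Klf4 and 0.08 around Klf10, where Klf4 itself was at -3.34 and Klf10 at -0.03. Around Klf5 it was -0.22, beside -1.44 for Klf5, and 0 of the 20 neighbours of Klf4, and 0 of those of Klf5, were past 3-fold in any clone. Around Klf2 the neighbours (-0.31) and the whole of chromosome 8 (-0.28) were alike, with Klf2 at -0.88. Klf6, at 1.20, had neighbours at -0.08, of which 2 were past 3-fold.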
